A study of Mus musculus with 7 samples.

Results

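Langerin (Cd207) and 6 mouse genes of the DC-SIGN family, Cd209a, Cd209b, Cd209c, Cd209d, Cd209e and Cd209f, are C-type lectins, and their mRNA was followed here in the conventional type 1 dendritic cells (cDC1) found in lung. They were chosen by name, with earlier results of these data known. Every probe set annotated to 1 of these 7 symbols was taken, and all 7 had a probe set among the 25428 of the array. The question of the study was how cDC1 of late lung tumors differ from those of control lungs. Tumor-bearing mice (KP(l)) were C57/BL6 animals that received 100000 KP cells, a mouse lung adenocarcinoma line, through the tail vein, and were killed on day 28. Controls (nLung) were healthy C57/BL6 mice, injected with the saline vehicle according to the methods. There were 3 KP(l) arrays and 4 nLung arrays, and each held RNA of cDC1 sorted from the pooled lungs of 2 to 3 mice, so an array is a pool and not an animal. In both groups CD11c was used for enrichment on beads, the sort then relied on MHC class II, CD11b, SiglecF, CD103 and CD11c, and the age of the mice is not given in the sources used here.

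C-type lectins bind sugars through a calcium-dependent domain at the end of a transmembrane stalk. Langerin binds mannose, fucose and sulfated sugars of pathogens, recycles through endosomes and builds Birbeck granules in Langerhans cells. In the mouse it also marks dermal and lung dendritic cells that carry CD103. Human DC-SIGN binds high-mannose and fucosylated glycans on microbes and on ICAM molecules and signals through a protein complex assembled at its cytoplasmic tail. In the mouse its single gene is replaced by a cluster, in which Cd209a is the form best known from dendritic cells, including those derived from monocytes, and Cd209b (SIGNR1) is the form of macrophages of the splenic marginal zone and lymph node.

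The cell type label was checked first. All 12 defining markers of cDC1 (among them Xcr1, Clec9a, Irf8 and Batf3) lay above the median of every array, and their summed linear expression was 10600 to 13600 in KP(l) and 11300 to 13600 in nLung. Several arrays carried markers of other cells. KP(l) replicate 1 alone had a neutrophil sum of 1560, against 63.3 to 82.5 in the other 6 arrays. Most of it came from S100a8 (834) and S100a9 (655). In nLung replicate 1 the epithelial sum was 2540, against 270 to 819 in the rest, mostly from Scgb1a1 (1620) and Sftpc (661). The arrays also fall into 2 sets that cross the groups, the 4 arrays of replicates 1 and 2 and the other 3 arrays (KP(l) replicate 3 with nLung replicates 3 and 4), with upper quartiles of 5.11 to 5.17 and 5.22 to 5.28 on the log2 scale. What these sets are is not given in the labels. Linear expression means the antilog of the deposited log2 value, and array medians on that scale were 11.2 to 11.9.

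Cd207 and Cd209a are the members whose signal in nLung lay above those medians on each array, so the 250 bases before their start sites are shown, from RefSeq on GRCm38.p6, both on the minus strand. All 7 members matched the promoter table. The windows are chr6:83677858-83678107 for Cd207 and chr8:3748985-3749234 for Cd209a. Capitals mark matches to the motifs searched on both strands in the window of 300 bases around the start, which were AP-1 (TGANTCA), PU.1 or ETS (GGAAGT), RUNX (TGTGGT), SMAD (CAGACA), RBPJ (GTGGGAA) and a TATA-like element (ATAAAA). Elements for STAT6 and for interferon-regulated factors, each 10 letters long, were searched too. The SMAD match of Cd207 is not capitalised.
Cd207: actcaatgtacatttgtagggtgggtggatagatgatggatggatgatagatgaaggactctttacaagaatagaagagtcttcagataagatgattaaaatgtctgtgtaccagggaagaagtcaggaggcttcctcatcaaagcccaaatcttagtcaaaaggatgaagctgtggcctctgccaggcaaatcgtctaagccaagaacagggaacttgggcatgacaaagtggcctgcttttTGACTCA
Cd209a: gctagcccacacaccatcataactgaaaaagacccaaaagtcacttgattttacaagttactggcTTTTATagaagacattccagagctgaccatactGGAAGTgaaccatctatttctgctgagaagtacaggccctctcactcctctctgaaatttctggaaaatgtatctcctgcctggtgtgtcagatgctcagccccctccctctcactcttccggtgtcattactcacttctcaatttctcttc

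The AP-1 match of Cd207 ended at base -1, directly before the start. Of all 32851 promoter windows, 7.8% held such a match, and among the members Cd209f held the other one. The PU.1 or ETS match of Cd209a began at base -152, and 23.8% of windows held one, among them that of Cd209d. The RBPJ letters occurred in no member's window and in 6.4% of all windows. The TATA-like letters occurred in 6 of the 7 members, Cd207 and Cd209a included, and in 18.5% of all windows. Their places differed, beginning at base 19 in Cd207, at -185 and 27 in Cd209a and at -2 in Cd209b. In Cd209c they began at -217, in Cd209e at -32 and in Cd209f at -208. RUNX letters occurred in Cd209d and Cd209e (16.8% of windows), SMAD letters in Cd207 (21.0%), the STAT6 element in Cd209e (7.0%) and the interferon element in no member (3.4%). A match is a string of letters here and not a measured binding site.

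The DC-SIGN members can be set side by side at the start site. Cd209a and Cd209b shared a run of 17 bases, ataaaagctgtagtctc, that occurred in these 2 windows only, and Cd209e carried a near copy. The 30 bases around it are shown because 1 of the 3 genes had a wide group difference and 2 had none measurable, as given below; capitals mark the 16 positions that are the same in all 3, and each segment is on the minus strand of GRCm38.p6, at chr8:3748936-3748965 for Cd209a, chr8:3926821-3926850 for Cd209b and chr8:3854296-3854325 for Cd209e.
Cd209a: gtgGcaaATAAAAGCTGTaGTctctgtCAg
Cd209b: tcaGgggATAAAAGCTGTaGTctccagCAt
Cd209e: gtgGcagATAAAAGCTGTtGTtctaagCAg

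Relative to the annotated start the segment began at base 20 in Cd209a, at base -9 in Cd209b and at base -39 in Cd209e. The other 3 DC-SIGN members held no copy of its unbroken shared stretch, ATAAAAGCTGT, in their windows. The shorter letters AGCTGT within it did occur in the windows of Cd209d and Cd209f. Of these 3 genes Cd209a separated KP(l) arrays from nLung arrays, and for Cd209b and Cd209e the groups overlapped. Cd209b and Cd209e lay under the median of every array, where a probe set can report background, so their overlap does not show unchanged mRNA. A part of the segment in expression was not tested.

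Langerin mRNA was lower in tumor-associated cDC1. Linear expression of Cd207 was 94.8, 43.7 and 236 in KP(l) replicates 1, 2 and 3, against 276, 268, 507 and 347 in nLung replicates 1 to 4. All KP(l) arrays were below nLung, although KP(l) replicate 3 came close to the lower pair of nLung arrays. Means were 125 ± 99.8 in KP(l) (SD, n = 3 arrays) and 349 ± 111 in nLung (SD, n = 4 arrays). On the log2 scale the difference, KP(l) minus nLung, was -1.77 (standard error 0.56, 95% interval -3.10 to -0.43), which is 3.4-fold lower. An exact two-sided permutation test over the 35 assignments of the array labels gave p = 0.0286, the smallest p that 3 against 4 arrays can give. In the limma fit across all probe sets the unadjusted p was 0.0172 and the adjusted p 0.912 (Benjamini-Hochberg), so that the difference did not pass at the level of the transcriptome.

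**Figure D1:**
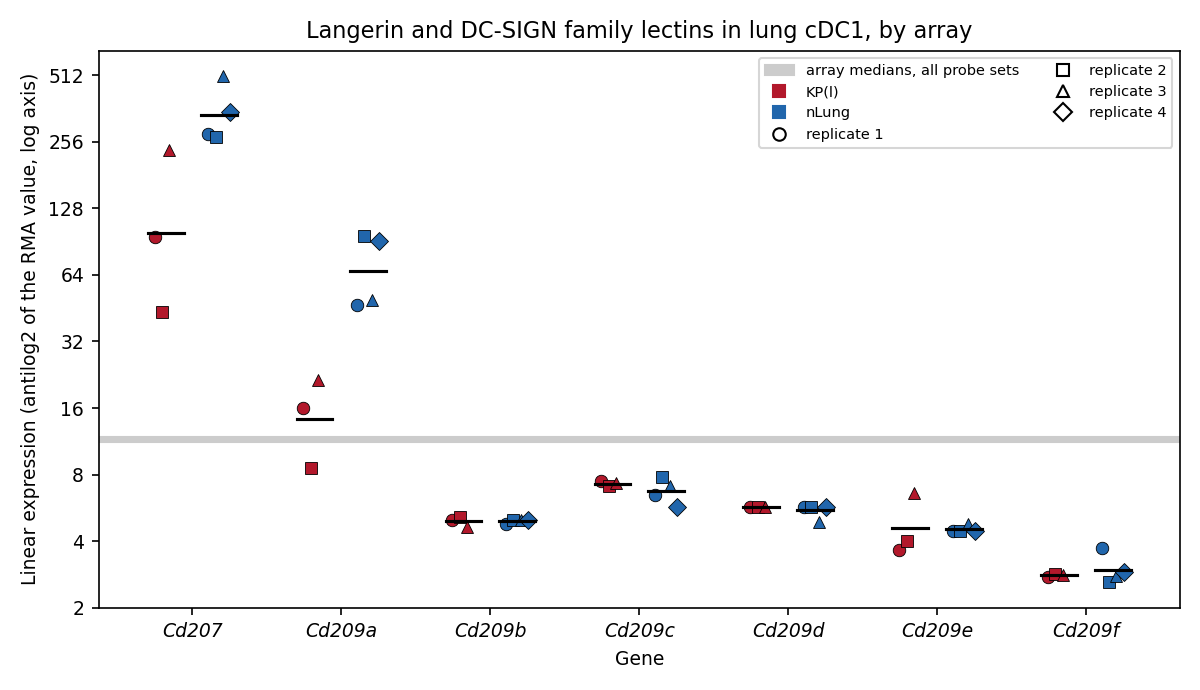
Linear expression (antilog2 of the deposited value, log axis) of the 7 lectins on each array, with KP(l) in red left of nLung in blue, marker shapes for replicate numbers, black bars at the mean of the log2 values and a grey band at the array medians. KP(l) values lie below nLung values for Cd207 (43.7 to 236, against 268 to 507) and Cd209a (8.61 to 21.4, against 46.7 to 95.5), and the other 5 genes lie under the grey band on every array.

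How low Cd207 lay depended on the KP(l) pool. The 3 KP(l) arrays spanned 43.7 to 236, and their log2 values had an SD of 1.22, against 0.42 in nLung. Without KP(l) replicate 2 the difference was -1.17, and without KP(l) replicate 3 it was -2.39. Among replicates 1 and 2 it was -2.08, and in the other 3 arrays, where KP(l) has 1 array and no test can be made, it was -0.83. In each case KP(l) was the lower group.

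Cd209a, the DC-SIGN relative of dendritic cells, had the largest difference among the lectins. Its linear expression was 16.0, 8.61 and 21.4 in KP(l) replicates 1 to 3, against 46.7, 95.5, 49.2 and 91.5 in nLung replicates 1 to 4. The highest KP(l) array was thus below the lowest nLung array, with a wide gap between the groups, and KP(l) replicate 2 fell under the median of its own array. Means were 15.3 ± 6.43 in KP(l) (SD, n = 3) and 70.7 ± 26.4 in nLung (SD, n = 4). The log2 difference was -2.22 (standard error 0.41, 95% interval -3.20 to -1.25), or 4.67-fold lower. The exact two-sided permutation test gave p = 0.0286, and limma gave an unadjusted p of 0.00112 and an adjusted p of 0.752.

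For Cd209a the difference held in both sets of arrays, at -2.51 among replicates 1 and 2 and -1.65 in the other 3 arrays. Leaving out single arrays gave -2.51 to -1.85. The whole array gives a scale for these values. No probe set passed an adjusted p of 0.05 or less with a fold change of 2 or more (0%), and the smallest adjusted p of any probe set was 0.502. A SAM statistic was written anew here, and the samr package of the study, whose calls can differ, was not run. In this version the smallest q was 0.143, with q = 0.487 for Cd207 and 0.273 for Cd209a. Thus 0 of the 7 lectins were called by limma or by this version. Of the 7 lectins 2 had an unadjusted p under 0.05, both of them lower, while 4.86% of all probe sets had one (2.24% lower and 2.62% higher). Both also had groups that did not overlap and a fold change of 2 or more, while 3.84% of probe sets did not overlap between groups (1.72% with KP(l) below) and 1.84% differed by 2-fold or more (0.865% lower). Differences as low as that of Cd207 were found for 37 probe sets (0.146%), and as low as that of Cd209a for 8 (0.0315%).

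**Figure D2:**
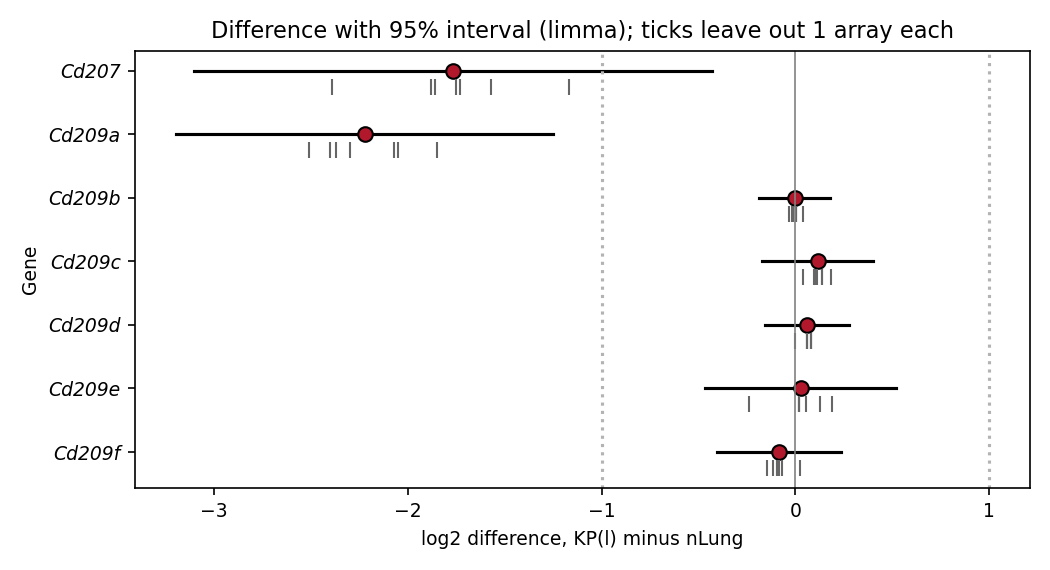
The log2 difference, KP(l) minus nLung, of each lectin (points) with its 95% interval from limma (bars), and below each the values with 1 array left out (ticks); dotted lines mark a 2-fold difference. Cd207 at -1.77 and Cd209a at -2.22 lie beyond the lower dotted line, and the intervals of the other 5 genes lie between -0.47 and 0.52.

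Whether the 2 lectins differed in how far they were lowered was asked within arrays. The log2 ratio of Cd207 to Cd209a within an array was 2.79 ± 0.594 in KP(l) and 2.33 ± 0.817 in nLung, and a group difference was not detectable at this number of arrays (difference 0.46, exact two-sided permutation p = 0.4). Over the 7 arrays, which include the group difference, the log2 values of the 2 genes had a Pearson r of 0.842 and a Spearman rho of 0.75, and r was 0.52 once group means were removed. KP(l) replicate 2 had the lowest value of both genes. In nLung the orders differed, since Cd207 was highest in replicate 3, where Cd209a was near its nLung minimum.

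The cDC1 markers did not separate the groups on average. The mean log2 value of the 12 cDC1 markers was 9.84 ± 0.167 in KP(l) and 9.90 ± 0.113 in nLung (exact two-sided permutation p = 0.543). Of the 12, Itgae, which encodes the CD103 used in the sort, had 1170, 1360 and 1350 in KP(l) and 928, 940, 1090 and 1070 in nLung, with all KP(l) arrays above (log2 difference 0.36, unadjusted p = 0.0116 and adjusted p = 0.912 in limma), and Clec9a differed by -0.33 (unadjusted p = 0.0362). Relative to that mean, Cd207 differed by -1.71 and Cd209a by -2.17, each with an exact permutation p of 0.0286, a comparison added after the data were seen. In bulk RNA of sorted cells, fewer cells that express a lectin and less mRNA per cell cannot be told apart.

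Markers of other cells were set beside these values, as the sum of a list on each array and as its members, since a sum is carried by the brightest probe sets. Alveolar macrophage markers, 10 of 12 measured, summed to 1350, 1480 and 463 in KP(l) replicates 1 to 3, against 1670, 583, 531 and 983 in nLung replicates 1 to 4. KP(l) replicate 3 had the smallest of these sums and the highest Cd207 and Cd209a of the KP(l) arrays. The largest sum was in nLung replicate 1, where Cd207 was 276. In nLung the brightest of these markers was Cd9 (574 in nLung and 313 in KP(l)), which differed by -0.83. However, 8 of the 10 genes had differences above 0, with Fabp4 (2.8), Car4 (1.29), Pparg (1.22) and Mrc1 (1.05) 2-fold or more higher. The groups overlapped for all 10. The list median was 0.60, and -0.0756 without KP(l) replicate 1. The cDC2 and monocyte-derived dendritic cell sum, 13 of 14 markers measured, was 2710 to 2830 in KP(l) and 2990 to 3480 in nLung. That sum was carried by Ccr2 (mean 1780 in KP(l) and 2140 in nLung) and Fcer1g (478 in KP(l) and 741 in nLung), whereas 8 of the 13 genes had differences above 0. KP(l) arrays were all above nLung for Mgl2 (1.38) and Clec10a (1.31) and all below for Irf4 (-0.58) and Fcer1g (-0.67). Fcgr1 (1.13) and Sirpa (0.92) overlapped between groups and were highest in KP(l) replicate 1 (52.7 for Fcgr1 and 117 for Sirpa). The list median was 0.15, and -0.195 without KP(l) replicate 1.

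The B cell sum, 5 of 6 markers measured, was 340 to 423 in KP(l) and 437 to 554 in nLung. Ighm alone carried it (327 in KP(l) and 468 in nLung), while Cd79b (0.89) and Ms4a1 (1.02) differed the other way. Both were highest in KP(l) replicate 1 (23.6 for Cd79b and 34.5 for Ms4a1) and lay under the array medians on the other arrays. The B cell list median was 0.26. The interstitial macrophage sum, 10 of 11 markers measured, was 277 to 929 in KP(l) and 536 to 1020 in nLung. Timd4, a phosphatidylserine receptor that is not particular to macrophages, carried the lower values (140 in KP(l) and 606 in nLung). C1qb (1.96), Mrc1 (1.05) and C1qa (0.95) differed upward, but their groups overlapped. C1qb had 277, 128 and 22.8 in KP(l) and 34.4, 19.8, 19.1 and 25.5 in nLung. The list median was 0.26, and 0.00504 without KP(l) replicate 1. Sums of pDC markers were 431 to 582 in KP(l) and 440 to 544 in nLung, those of lymphatic endothelial markers 68.3 to 91.2 in KP(l) and 62.6 to 69.4 in nLung, and those of T and NK cell markers 75.2 to 90.7 in KP(l) and 79.3 to 119 in nLung. The part of other cells in the 2 lectin differences was not tested.

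The other 5 members gave little signal in either group. None of their 35 values lay above the median of its array, and linear values were 2.61 to 7.81, between the 0.665th and the 34.8th percentile. At this level a probe set can report background, and the arrays carry no measured limit of detection. Probe sets of a family with similar sequences may also share signal, which was not tested here.

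Cd209b, which takes up microbial polysaccharides in macrophages, had 4.99, 5.15 and 4.65 in KP(l) and 4.77, 4.99, 4.99 and 4.99 in nLung. Cd209d (SIGNR3), a receptor of myeloid cells that binds mycobacterial glycans, had 5.74 on 6 of the 7 arrays and 4.87 on nLung replicate 3. Neither gene separated the groups. Cd209e had the widest KP(l) range of the 5, with 3.67, 4.01 and 6.64 in KP(l) against 4.43, 4.43, 4.81 and 4.43 in nLung. Its single high array, KP(l) replicate 3, set the sign of the difference, which was 0.03 with that array and -0.24 without it.

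Cd209c had 7.45, 7.08 and 7.34 in KP(l) and 6.47, 7.81, 7.08 and 5.74 in nLung. Cd209f had 2.76, 2.85 and 2.82 in KP(l) and 3.72, 2.61, 2.78 and 2.89 in nLung. The groups overlapped for all 5 genes. Their log2 differences were -0.08 to 0.12, all adjusted p from limma were 0.92 or more, and the 95% intervals reached from -0.47 to 0.52 at their widest. On the array scale a 2-fold difference of these probe sets lay outside every interval, but low probe sets compress differences, so the intervals do not bound the change in mRNA.

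The transcripts most like Cd207 over the 7 arrays were sought among 12299 probe sets above the median mean. Dock8, an exchange factor needed for dendritic cell migration, came first (Pearson r 0.992, Spearman rho 0.964), before Pno1, a ribosome assembly factor (0.99 and 0.937), and Klf8, a Krüppel-like repressor (0.985 and 0.906). Dock8 had 303, 256 and 397 in KP(l) and 397, 397, 505 and 448 in nLung. As for Cd207, KP(l) replicate 2 was its lowest array and nLung replicate 3 its highest. With group means removed the 3 correlations were 0.982, 0.982 and 0.969, on the same 7 arrays from which the genes were picked. The log2 differences of these genes were smaller, at -0.47 for Dock8, -0.67 for Pno1 and -0.30 for Klf8.

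For Cd209a the closest was Havcr1, which encodes the phosphatidylserine receptor TIM1 (r 0.961, rho 0.964), followed by Klf6 (0.946 and 0.929), a Krüppel-like factor, and Dlgap5 (0.943 and 0.927), a mitotic spindle protein. Havcr1 had 17.3, 12.4 and 20.8 in KP(l) and 49.7, 55.7, 29.4 and 52.8 in nLung. Its groups did not overlap, and its log2 difference was -1.47 (standard error 0.28, adjusted p = 0.816 in limma). KP(l) replicate 2 was the lowest array of Klf6 and of Dlgap5, as it was for Cd209a, and their differences were smaller, at -0.35 for Klf6 and -0.29 for Dlgap5. Removing group means left r at 0.783, 0.859 and 0.964. These correlations come from 7 arrays searched over many probe sets and are descriptions.

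**Figure D3:**
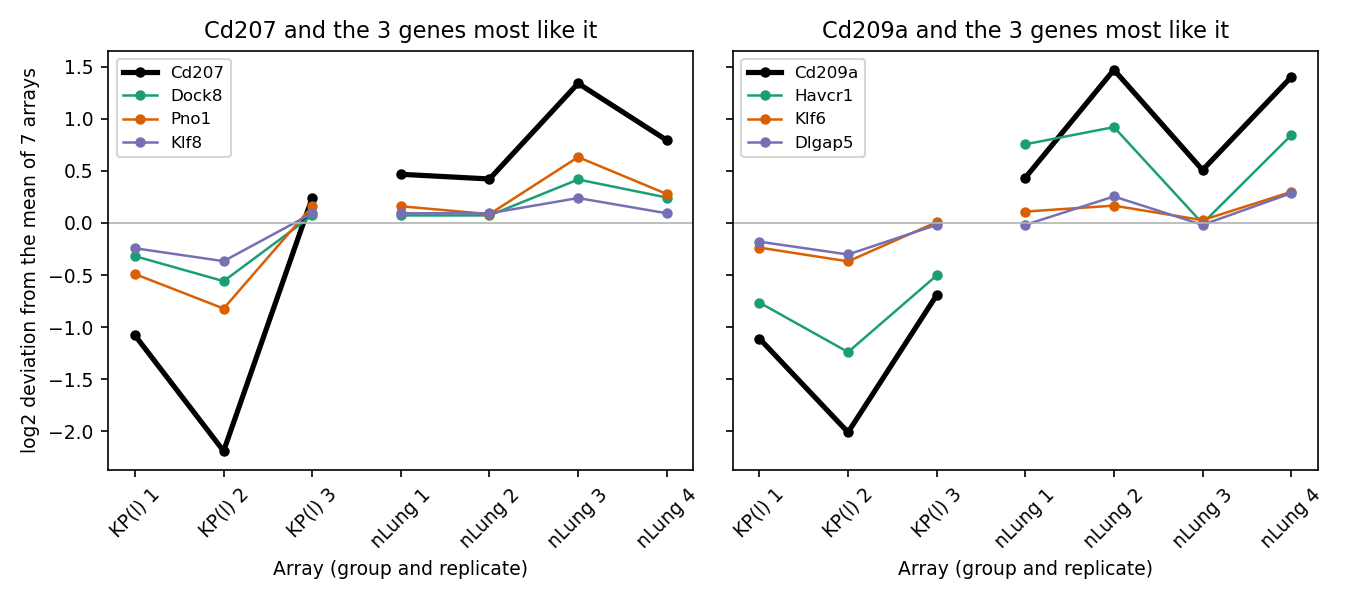
Deviation of log2 values from the mean of the 7 arrays for Cd207 (left, black) and Cd209a (right, black) and the 3 genes most like each (colours), by array, with KP(l) left of nLung. KP(l) replicate 2 is the lowest array of all 8 genes, and the swing of each lectin is wider than that of the 3 genes shown with it.

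Genes next to the lectins were examined on the same arrays. Among the 3 nearest named protein-coding genes on each side of Cd207 and of the Cd209 cluster, 0 of 12 had an unadjusted p under 0.05. The share among all probe sets was 4.86%. Median log2 differences were 0.04 for the neighbours of Cd207 and 0.08 for those of the cluster. Next to Cd207, Clec4f, the lectin of Kupffer cells, differed by 0.17 and Vax2, a homeobox gene, by 0.05. Beside the cluster, Clec4g, a lectin of sinusoidal endothelium, differed by 0.15. Cd209g, a further gene of the DC-SIGN family, had 7.68, 7.6 and 8.39 in KP(l) and 8.64, 14.2, 10.2 and 8.81 in nLung. Its KP(l) arrays were all below nLung, by -0.38 on the log2 scale (95% interval -0.82 to 0.07, unadjusted p = 0.0843, adjusted p = 0.912 in limma), and without nLung replicate 2 by -0.22. Of the DC-SIGN genes measured, Cd209a alone had a difference of 2-fold or more. The others lay under the array medians, Cd209g on every array except nLung replicate 2. Low probe sets compress differences, so the smaller differences of these genes do not show unchanged mRNA.

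The surroundings of the lectins were then described with 7 lists of genes, and in none did a gene pass after adjustment in limma. Differences of these genes are given as KP(l) minus nLung on the log2 scale, on which the median of all probe sets was 0.02. The counts at an unadjusted p under 0.05 in each of the 7 lists stand beside 4.86% of all probe sets (2.24% lower and 2.62% higher). With so few genes per list, no count was tested against that share. Langerin depends on TGF-beta signals and, in some dendritic cells, on Notch. Of 29 genes in that list 3 had an unadjusted p under 0.05, all lower, and the list median was 0.04. Skil, a repressor of SMAD proteins, had 172, 113 and 121 in KP(l) and 238, 203, 190 and 209 in nLung, a difference of -0.66. Rbpj, the DNA-binding factor of Notch, had -0.35 and Smad2, a transducer of TGF-beta, -0.42. Smad2 values were 78.3, 65.2 and 103 in KP(l) and 122, 104, 105 and 104 in nLung, and the difference was -0.65 among replicates 1 and 2 and -0.02 in the other 3 arrays.

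Retinoic acid, which shapes the differentiation of dendritic cells, was covered by 14 genes, of which 3 had an unadjusted p under 0.05, 2 of them higher and 1 lower (median 0.02). Aldh1a2, an enzyme that makes retinoic acid, differed by 0.53, Stra6, a retinol transporter, by 0.36 and Rxrb, a nuclear receptor, by -0.48, and the groups overlapped for all 3. Of 21 genes of langerin traffic through endosomes 1 was higher and 0 were lower (median -0.00355). That gene was Lamp1, a lysosomal membrane glycoprotein, with 381, 381 and 270 in KP(l) and 88.9, 212, 153 and 238 in nLung, a difference of 1.07 (standard error 0.36, adjusted p = 0.912) and of 0.50 in the other 3 arrays. All KP(l) arrays lay above nLung for Lamp1, opposite to Cd207.

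The signaling complex of human DC-SIGN is built on the adaptor LSP1, and 18 of the 26 genes listed for this complex and its outputs were measured. At an unadjusted p under 0.05, 1 was higher and 1 was lower, with a median of -0.14. Nras, a small GTPase, had 265, 200 and 260 in KP(l) and 330, 367, 394 and 327 in nLung (-0.56). Bcl3, an NF-kappaB cofactor, differed by 0.54, by 0.85 among replicates 1 and 2 and by 0.07 in the other 3 arrays. Of 12 genes for cell-surface ligands of the DC-SIGN family, 0 had an unadjusted p under 0.05 (median 0.08). Itgb2, the beta chain of the integrin MAC-1, averaged 940 ± 114 in KP(l) and 1120 ± 114 in nLung, and Icam1 averaged 133 ± 59.7 in KP(l) and 181 ± 39.0 in nLung, with KP(l) replicate 2 at 64.0 and a difference of -0.56 that was -0.09 without it.

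**Figure D4:**
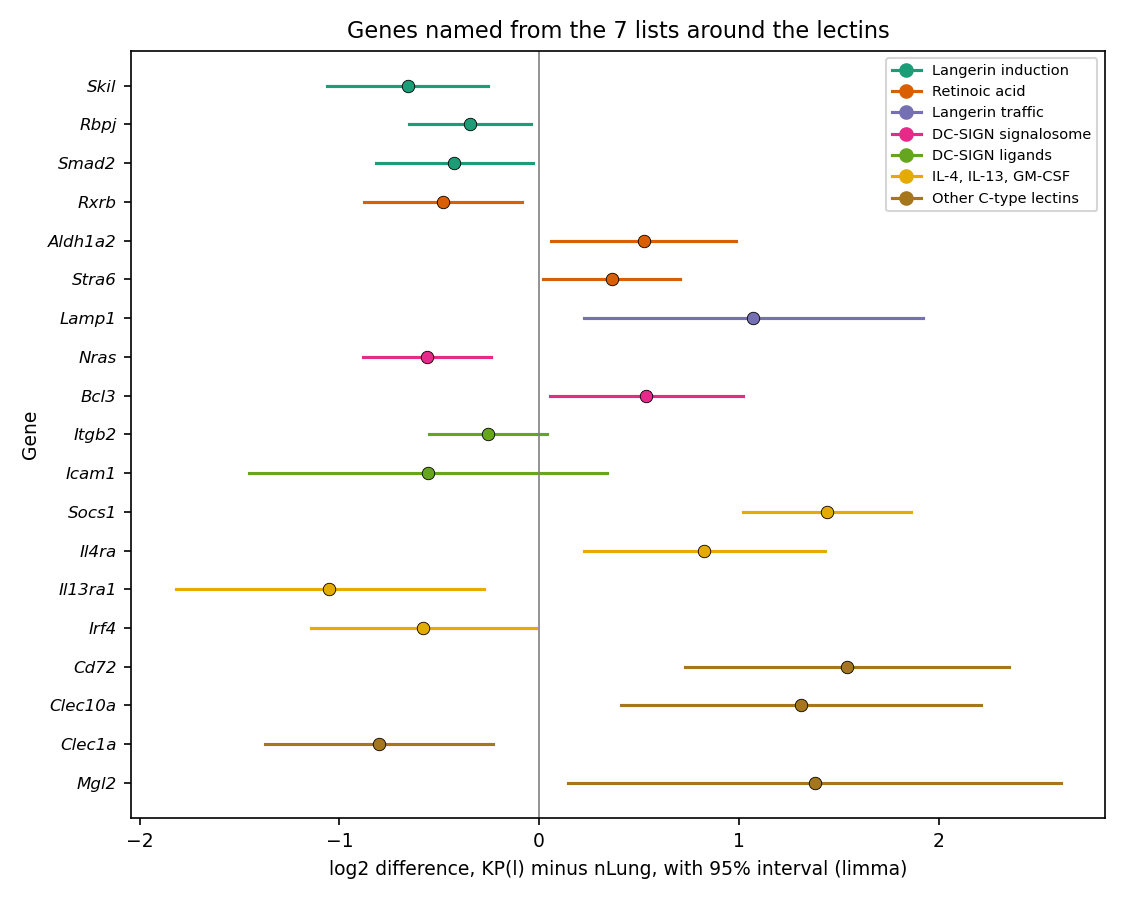
The log2 difference, KP(l) minus nLung, with the 95% interval from limma, of the genes named from the 7 lists around the lectins, coloured by list. Cd72 (1.54), Socs1 (1.44) and Mgl2 (1.38) lie farthest to the right and Il13ra1 (-1.05) farthest to the left.

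IL-4 with GM-CSF induces DC-SIGN in human monocyte cultures, and 13 of 14 genes of these inputs were measured. An unadjusted p under 0.05 was found for 4 of them, 2 higher and 2 lower, with a list median of -0.10. Socs1, a feedback inhibitor of cytokine receptors, had 66.6, 67.7 and 68.3 in KP(l) and 31.0, 18.5, 27.4 and 24.4 in nLung. The KP(l) arrays were close to one another and far above nLung, and the difference of 1.44 (standard error 0.18) had the smallest adjusted p of the array, 0.502. The receptor chains of IL-4 and IL-13 differed in opposite directions. Il4ra had 90.2, 148 and 118 in KP(l) and 46.1, 77.9, 64.1 and 80.9 in nLung (0.83), while Il13ra1 had 139, 93.8 and 222 in KP(l) and 318, 229, 394 and 263 in nLung (-1.05, or -0.53 in the other 3 arrays). Irf4, a transcription factor induced by IL-4, differed by -0.58, and by -0.33 without KP(l) replicate 1.

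Other C-type lectins of myeloid cells lay on both sides of 0. Of 31 measured, 21 lay above 0 and 10 below, 7 had an unadjusted p under 0.05, of which 5 were higher and 2 lower, and the median was 0.15, which was 0.03 without KP(l) replicate 1. Cd72, an inhibitory lectin best known from B cells, had 63.1, 90.5 and 74.7 in KP(l) and 15.7, 21.5, 40.5 and 32.8 in nLung (1.54, standard error 0.34, adjusted p = 0.912). The 2 macrophage galactose-type lectins, which bind galactose and N-acetylgalactosamine rather than mannose, had differences above 0, Clec10a at 12.7, 19.9 and 8.48 in KP(l) against 7.76, 3.48, 6.21 and 4.33 in nLung (1.31), and Mgl2 at 71.5, 82.8 and 132 in KP(l) against 17.7, 61.1, 24.2 and 61.1 in nLung (1.38). For these 3 genes the KP(l) arrays were all above nLung, but the nLung values and KP(l) replicate 3 of Clec10a lay under the array medians, where a probe set can report background. Clec10a differed by 0.71 and Cd72 by 1.04 in the other 3 arrays. Clec1a, a lectin that recognises fungal melanin, was lower at 23.6, 37.8 and 34.2 in KP(l) and 49.4, 41.0, 65.3 and 66.3 in nLung (-0.80).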

How the data were processed

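The 7 arrays were of the type Mouse Gene 2.0 ST. The deposited values are log2 expression after RMA by the authors (background correction, quantile normalization and median polish) in the affy package, with BrainArray definitions of 1 probe set per Entrez gene. RMA compresses differences at low values and can tie arrays there and at higher values, as for Dock8 (397 in KP(l) replicate 3 and nLung replicates 1 and 2). Levels of different probe sets are not compared. The labels name a NuGEN amplification and the methods an Affymetrix kit. Of 25428 probe sets, 24705 had 1 symbol, and 723 were not named.

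Differences between KP(l) and nLung were fitted with lmFit and eBayes of limma 3.58.1 in R 4.3.3, without covariates or filter, and p-values of the whole array were adjusted by Benjamini-Hochberg. A call needed a 2-fold difference or more with an adjusted p of at most 0.05. Single genes were also tested by exact two-sided permutation of array labels. Labels call the arrays biological replicates, and the p-values measure the spread between pools. Their number limits the precision. SAM was rewritten with all 35 assignments, and the samr package of the study was not run. Scripts were tested on simulated data.

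Members and gene lists were chosen with earlier results of these data known. Named genes were the members, up to 4 per list with the smallest unadjusted p under 0.05 (otherwise the 2 with the highest mean), the 3 most like Cd207 and Cd209a, and adjacent genes. Alternatives were an intensity trend, array weights, another quantile step, median centring, a filter, leaving out arrays, blocks for replicate and array set, SAM, linear means, a fold of 1.5 and an unadjusted threshold. Protein sequences were not used here. Plots were made in Python 3.11.15 (matplotlib 3.10.9).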

Additional observations from a re-analysis of the deposited data

Results flagged for a closer look

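In 7 of 36 genes examined, 1 nLung array lay apart from the other 3 beyond Dixon's 95% critical value, where chance gives about 1 in 20. Among the lectins, Cd209b was lowest in nLung replicate 1 (4.77, the others at 4.99), Cd209d lowest in nLung replicate 3 (4.87, the others at 5.74) and Cd209e highest in nLung replicate 3 (4.81, the others at 4.43). All 3 are low probe sets in which the other arrays of the group share 1 value. Among the other genes named, Smad2 was highest in nLung replicate 1 (122, the others 104 to 105), Irf4 in nLung replicate 2 (34.0, the others at 25.4) and Klf8 in nLung replicate 3 (21.9, the others at 19.8), and Clec4g was lowest in nLung replicate 4 (5.16, the others at 5.80). The other nLung arrays also shared 1 value in Klf8 and Clec4g, and nearly so in Irf4. For tied values the rate of about 1 in 20 does not hold. Cd207 and Cd209a had no such array.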

How the results depend on the processing

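Cd207 and Cd209a were lower in KP(l) under every alternative run, and neither passed the adjusted threshold in any, with adjusted p of 0.309 to 1 for Cd207 and 0.327 to 0.937 for Cd209a and SAM q of 0.487 for Cd207 and 0.273 for Cd209a. Leaving out 1 array gave -2.39 to -1.17 for Cd207 and -2.51 to -1.85 for Cd209a, and without KP(l) replicate 1 the unadjusted p of Cd207 was 0.0515. The replicate number did not pair the arrays (correlation of same-numbered deviations 0.0784, 0.0234 and 0.194, with 1 of 3 KP(l) arrays closest to its own number), and with the replicate block the differences were -1.75 for Cd207, -2.07 for Cd209a and 0.00238 for Cd209b, with no call changed. In the other 3 arrays Cd207 measured -0.827, Cd209b -0.102 and Cd209e 0.524, and Cd209b 0.0546 among replicates 1 and 2. Another quantile step gave Cd209e -0.0176. Low probe sets turned sign when arrays were left out, over -0.0352 to 0.0387 for Cd209b, -0.237 to 0.19 for Cd209e and -0.145 to 0.0255 for Cd209f, as did Vax2 over -0.0442 to 0.108. At an unadjusted p under 0.05 with a 2-fold change, 2 lectins and 237 probe sets in all would be called, instead of 0. List medians moved without single arrays, over -0.0189 to 0.0635 for langerin induction, -0.0613 to 0.0341 for langerin traffic, 0.0336 to 0.199 for other C-type lectins, -0.049 to 0.156 for the neighbours of the Cd209 cluster, -0.0756 to 1.36 for alveolar macrophage markers, -0.283 to 0.0646 for epithelial markers, -0.195 to 0.295 for cDC2 markers, -0.0101 to 0.202 for pDC markers, -0.159 to 0.0672 for T and NK cell markers and 0.11 to 0.332 for B cell markers. For interstitial macrophage markers the medians were 0.00504 to 0.422. Ligands above the median mean had a median of -0.0575. The causes were not tested.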
